A study of Rattus norvegicus with 20 samples.

Results

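The 6 genes described here are Kcnj10, Kcnj16 and Kcnj15, which encode inwardly rectifying potassium channel subunits, Bsnd, which encodes the chloride channel subunit barttin, Atp1b1, which encodes the beta1 subunit of the sodium pump, and Kcnma1, which encodes the pore of the large-conductance potassium channel (BK). They were chosen by name for salt transport across the blood-facing membrane of the distal kidney tubule, and were found by gene symbol and identifier. All 6 were listed in both deposited tables, which hold 32545 genes for cyclosporine A and 32883 for tacrolimus.

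Distal tubule cells take up salt from the urine side through the cotransporters NKCC2 (Slc12a1) and NCC (Slc12a3), and the sodium pump (Na,K-ATPase) moves the sodium out on the blood side in exchange for potassium. Kir4.1 (Kcnj10) and Kir5.1 (Kcnj16) form a channel there that returns the potassium and sets the membrane voltage, while chloride channels that need barttin to reach the membrane let chloride leave. Kir4.2 (Kcnj15) also pairs with Kir5.1, mostly in the proximal tubule. BK is known mainly from the urine-side membrane of the later distal nephron, where it secretes potassium, and from vascular smooth muscle, so Kcnma1 is the member that does not belong to the blood-side set.

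The study compared 2 calcineurin inhibitors, immunosuppressants given after organ transplantation, for their effects on the rat kidney. All 20 samples are whole kidneys of adult male Wistar rats of wild-type (WT) genotype, 10 to 12 weeks old, given drug or vehicle for 28 days by osmotic minipumps placed under the skin. The groups were cyclosporine A (n = 4) with its saline vehicle (n = 4), and tacrolimus at a target trough plasma level of 3.5 ng/ml (n = 6) with its vehicle (n = 6), DMSO at 25% in polyethylene glycol at 75% (DMSO/PEG). Vehicle and table change together with the drug, so across the drugs these 3 cannot be told apart. The labels number the samples of a group as replicates and do not say more about their source, so p-values measure the spread between these samples. In whole-kidney RNA, fewer cells of a type and less RNA per cell cannot be told apart.

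Libraries of the cyclosporine A table held 30464714 to 34302682 fragments assigned to genes and those for tacrolimus 31670202 to 39358485. Mitochondrial genes took 49.7% to 68.6% of the fragments with saline and 80.2% to 90.8% with cyclosporine A, against 10.5% to 15.9% in the tacrolimus table. Nuclear genes, among them all members, were left with 10280330 to 17250531 fragments with saline and only 2904581 to 6546874 with cyclosporine A. Deposited FPKM (fragments scaled by gene length and library depth) of the cyclosporine A table is relative to all fragments. It was therefore also rescaled by median-of-ratios size factors from nuclear genes, and levels and changes below are on rescaled FPKM unless deposited FPKM is named. On deposited FPKM the median of all genes tested lay at -0.89 on the log2 scale with cyclosporine A, and on rescaled FPKM at 0.00. Proximal tubule markers, a check of the labelled tissue, summed to 109.8 to 300.3 FPKM in libraries of the first table and to 2267 to 2611 FPKM in those of the second.

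Atp1b1 was the most abundant of the 6 genes in every group and Kcnma1 the least. In DMSO/PEG kidneys the mean levels per length were 1316 FPKM for Atp1b1, 242.5 for Kcnj16, 157.7 for Kcnj15, 33.9 for Bsnd, 13.2 for Kcnj10 and 0.292 for Kcnma1, and no neighbours in that order overlapped between libraries. By vehicle mean, Atp1b1 ranked 38 and Kcnj16 335 among the 21540 genes above 0 there. In saline kidneys the order was Atp1b1 (414.0 FPKM), Kcnj16 (24.6), Bsnd (8.09), Kcnj15 (2.92), Kcnj10 (0.585) and Kcnma1 (0.167), with Bsnd above Kcnj15. The ranges of Kcnj10 and Kcnma1 overlapped there, while the other neighbours stood apart. The tables were normalized separately, so levels of the 6 genes are not compared across them, and marker sums given for both are descriptions only. Atp1b1 and Kcnma1 in the cyclosporine A table came out as whole fragments only with gene lengths of 1305 and 3815 bases, shorter than the 2664 and 4751 bases listed, which raises their FPKM there. The length also enters the change of a low gene on the log2(FPKM + 1) scale used below, so that of Kcnma1 depends on it.

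**Figure D1:**
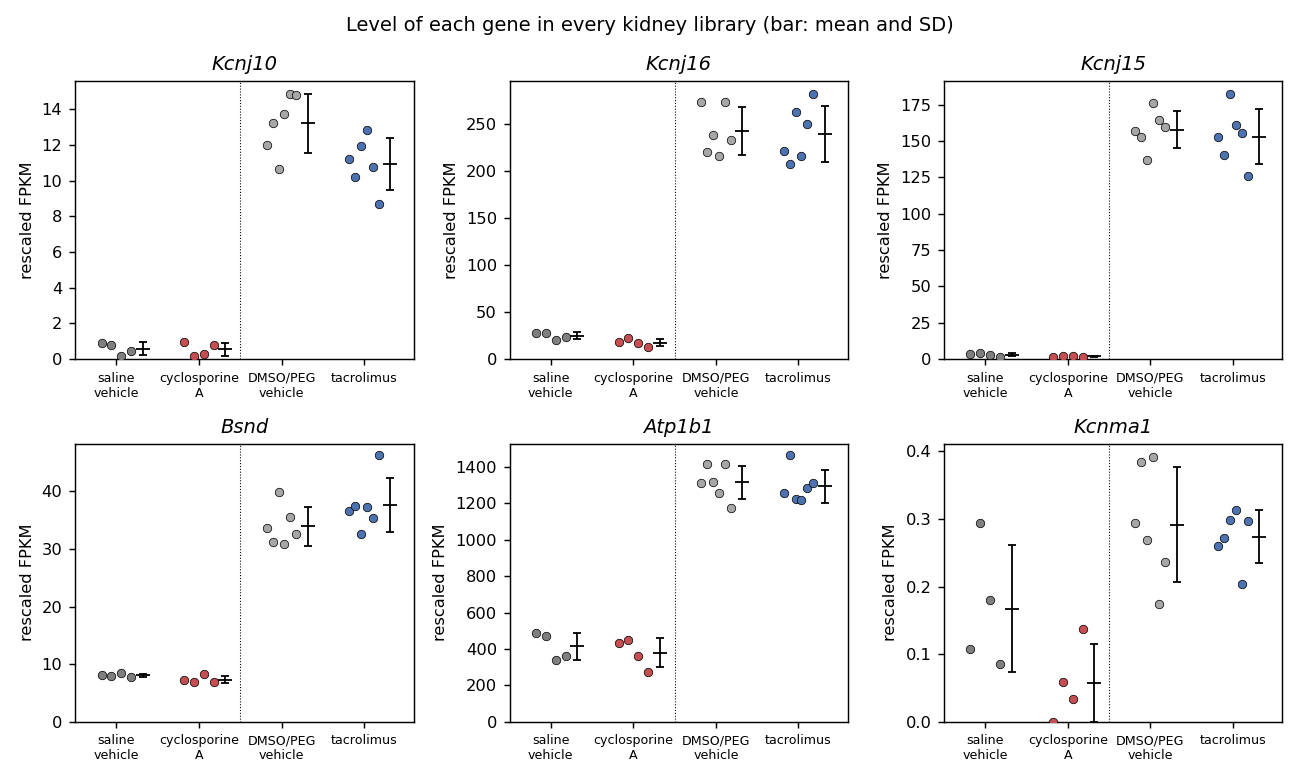
Rescaled FPKM (linear axis from 0) of each of the 6 genes in every kidney library, by group, with the group mean and SD as a bar beside the points; the dotted line separates the 2 tables, which were normalized separately. Within each table the points of drug and vehicle overlap for all 6 genes, and the widest relative spread is that of Kcnma1 and Kcnj10 in the cyclosporine A table.

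Kcnj10, the pore subunit Kir4.1, lies on chromosome 13 (90723092 to 90752581, plus strand, rn6). With saline its level was 0.907, 0.809, 0.147 and 0.477 FPKM in the 4 libraries, and with cyclosporine A 0.935, 0.183, 0.302 and 0.789 FPKM. Both groups had high and low libraries and overlapped over nearly the whole range. The values rest on 10 to 88 fragments per saline library and 7 to 25 per cyclosporine A library. The log2 fold change on the log2(FPKM + 1) scale was -0.03 (SE 0.20, 95% interval -0.49 to 0.42, limma adjusted p = 0.959). That scale understates changes of low genes, and limma-voom on the recovered fragments gave -0.34 (adjusted p = 0.879). The interval is wide, so a change of moderate size in either direction was not detectable with this spread between libraries.

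Kcnj16 (chromosome 10, 99388130 to 99389898, plus strand), the Kir5.1 subunit that tunes the channel's response to acid and potassium, had the lowest fold change of the 6 in this table on the log2(FPKM + 1) scale, though not by its mean as a share of the saline mean, which was lower for Kcnj15 and Kcnma1. Its level was 27.3, 27.8, 20.0 and 23.4 FPKM with saline and 18.5, 21.9, 16.8 and 12.8 FPKM with cyclosporine A. All but 1 of the cyclosporine A libraries lay below every saline library; replicate 2, at 21.9, lay above the lowest saline library. The mean with cyclosporine A was 71.1% of the saline mean, with a log2 fold change of -0.48 (SE 0.17, interval -0.86 to -0.11). Over all genes tested the limma adjusted p was 0.196 (0.0165 before adjustment), and the gene was not called changed.

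Kcnj15 (chromosome 11, 35568182 to 35585390, plus strand), the Kir4.2 subunit, read 3.76, 3.91, 2.53 and 1.46 FPKM with saline and 1.18, 2.30, 1.91 and 1.71 FPKM with cyclosporine A. The saline libraries spread over a wider range than the drug libraries, and the lowest of them sat among the drug values. The mean with cyclosporine A was 60.8% of the saline mean, and the log2 fold change of -0.46 (SE 0.23, interval -0.98 to 0.06) did not pass the test (limma adjusted p = 0.364).

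Bsnd (chromosome 5, 126071846 to 126080698, minus strand), the chloride channel subunit barttin, varied least between libraries. Its level was 8.17, 7.98, 8.40 and 7.81 FPKM with saline and 7.19, 6.87, 8.28 and 6.99 FPKM with cyclosporine A. The drug libraries lay lower except replicate 3, which lay within the saline range. The log2 fold change was -0.13 (SE 0.10, interval -0.36 to 0.10, limma adjusted p = 0.584). The coefficient of variation over the saline libraries was 3.17%, against 14.9% for Kcnj16 and 59.0% for Kcnj10.

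Atp1b1 (chromosome 13, 82737159 to 82758004, minus strand), which carries the sodium pump to the membrane, read 486.7, 471.7, 338.2 and 359.3 FPKM with saline. With cyclosporine A it read 431.0, 450.0, 359.6 and 275.2 FPKM. The groups overlapped, each with 2 higher and 2 lower libraries, and the lowest of all was cyclosporine A replicate 4. The log2 fold change was -0.13 (SE 0.19, interval -0.55 to 0.28, limma adjusted p = 0.775), and without cyclosporine A replicate 4 it was 0.01.

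Kcnma1 (chromosome 15, 344360 to 1047956, plus strand) was at the edge of detection. It had 28, 46, 33 and 17 fragments in the saline libraries and 0, 6, 3 and 7 with cyclosporine A, where the count of 0 allows up to 3. As rescaled FPKM this is 0.107, 0.295, 0.181 and 0.0862 with saline and 0, 0.0583, 0.0338 and 0.137 with cyclosporine A. The drug libraries were low, but replicate 4 reached into the saline range. The gene passed the filter on low values mainly through the saline libraries. The drug mean was 34.3% of the saline mean, while the log2 fold change on the log2(FPKM + 1) scale was only -0.14 (SE 0.08, limma adjusted p = 0.443). With limma-voom on the fragments the change was -1.79 (adjusted p = 0.469), so neither scale called it.

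Against saline, none of the 6 genes was called changed with cyclosporine A on rescaled FPKM (0 of 6 at an adjusted p under 0.05, 1 of 6 at an unadjusted p under 0.05). Over all genes tested, 0.656% were called, or 87 of 13268, with 0.301% called lower, and 16.3% had an unadjusted p under 0.05. All 6 estimates were below zero, as were 49.7% of those of all genes tested, with a median of -0.14 against 0.00 for all genes tested. Leaving out 1 library brought Kcnj10 and Atp1b1 to as high as 0.089 and 0.0098, and Kcnma1 passed the filter mainly through the saline libraries. For 0 of the 6 did every drug library lie below every saline library, which 6.01% of all genes tested did. On deposited FPKM all 6 were called lower, as were 80.9% of all genes tested, and 5 of the 6 (all but Kcnj10) had every drug library below every saline library, as had 67.9% of all genes. Deposited Kcnj16 ran from 30.2 to 54.4 FPKM with saline and from 5.39 to 17.9 FPKM with cyclosporine A, a log2 fold change of -1.74 (SE 0.33, limma adjusted p = 6.30e-04). On deposited FPKM the other members changed by -0.52 (Kcnj10), -1.34 (Kcnj15), -1.30 (Bsnd), -1.47 (Atp1b1) and -0.27 (Kcnma1). The mitochondrial share given above differs between these groups and enters deposited FPKM, and a share of members near that of all genes is no result about the members.

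With tacrolimus the 3 inward rectifiers overlapped with their vehicle libraries. Kcnj10 ran from 10.7 to 14.9 FPKM (median 13.5) with DMSO/PEG and from 8.68 to 12.8 FPKM (median 11.0) with tacrolimus. The tacrolimus libraries were lower as a group, but most of them lay within the vehicle range. The mean was 82.9% of the vehicle mean, and the log2 fold change of -0.25 (SE 0.10, interval -0.46 to -0.04) had an unadjusted p of 0.0216 and a limma adjusted p of 0.446. Kcnj16 ran from 215.9 to 273.8 FPKM with vehicle and from 207.2 to 282.5 FPKM with tacrolimus, and both medians were 236 FPKM. The 2 groups covered the same range, with a log2 fold change of -0.02 (SE 0.09, interval -0.21 to 0.18, limma adjusted p = 0.983). Kcnj15 ran from 136.9 to 176.0 FPKM (median 158.2) with vehicle and from 126.0 to 182.2 FPKM (median 154.1) with tacrolimus. Its log2 fold change was -0.05 (SE 0.08, interval -0.23 to 0.13, limma adjusted p = 0.935).

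Barttin, the pump subunit and BK overlapped as well. Bsnd ran from 30.9 to 39.8 FPKM (median 33.1) with DMSO/PEG and from 32.6 to 46.3 FPKM (median 36.9) with tacrolimus, and was the only 1 of the 6 with an estimate above zero. Its log2 fold change was 0.14 (SE 0.08, interval -0.03 to 0.32, limma adjusted p = 0.699). Atp1b1 ran from 1178 to 1417 FPKM (median 1316) with vehicle and from 1217 to 1469 FPKM (median 1271) with tacrolimus. Those ranges covered each other almost wholly, and the log2 fold change was -0.03 (SE 0.08, interval -0.19 to 0.14, limma adjusted p = 0.968). Kcnma1 ran from 0.175 to 0.392 FPKM with vehicle and from 0.204 to 0.313 FPKM with tacrolimus, on 28 to 67 fragments per library. Its log2 fold change was -0.02 (SE 0.05, limma adjusted p = 0.961).

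Tacrolimus replicate 6 held the highest Bsnd and Kcnj16 and the lowest Kcnj10 and Kcnj15 of its group. It also had the highest mitochondrial share (15.9%) and the fewest nuclear genes detected (17853) of the 12 libraries. Without it the estimates were 0.084 for Bsnd, -0.19 for Kcnj10 and 0.0065 for Kcnj15, and none was called.

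None of the 6 genes was called changed with tacrolimus (0 of 6 adjusted, 1 of 6 at an unadjusted p under 0.05), where 0.304% of all genes tested were called, or 47 of 15479, and 8.61% had an unadjusted p under 0.05. For 0 of the 6 did every drug library lie below every vehicle library, which 0.672% of all genes tested did. The median estimate was -0.02, against 0.00 for all genes. The intervals are narrower than with cyclosporine A: over the 6 genes their outermost bounds were -0.46 (Kcnj10) and 0.32 (Bsnd), and that of Kcnj10 alone lay wholly below zero.

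**Figure D2:**
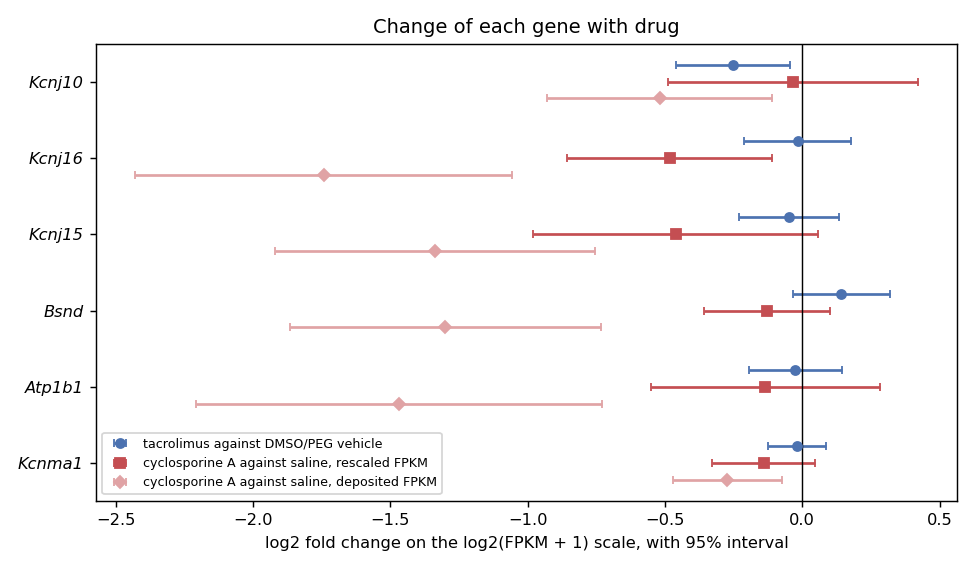
Log2 fold change of each gene on the log2(FPKM + 1) scale with its 95% interval from limma, for tacrolimus against DMSO/PEG vehicle and for cyclosporine A against saline on rescaled and on deposited FPKM; the vertical line marks no change. Points on deposited FPKM lie at or left of -0.27 for all 6 genes, while on rescaled FPKM only the interval of Kcnj16 lies wholly below zero and with tacrolimus only that of Kcnj10.

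Whether the drugs differed was tested gene by gene, as the cyclosporine A estimate less the tacrolimus estimate. Of the 6 genes 0 were called at an adjusted p under 0.05 and 1 had an unadjusted p under 0.05, where 1.75% of all genes tested were called (231 of 13213) and 2117 of the 13213 had an unadjusted p under 0.05. The difference was -0.47 for Kcnj16 (SE 0.19, interval -0.87 to -0.06, adjusted p = 0.242) and -0.41 for Kcnj15 (SE 0.25, adjusted p = 0.452). For Bsnd it was -0.27 (SE 0.13, interval -0.55 to 0.00, adjusted p = 0.319) and for Kcnj10 0.22 (SE 0.23, adjusted p = 0.691). Atp1b1 and Kcnma1 differed by -0.11 (SE 0.20) and -0.12 (SE 0.10). These estimates are on the log2(FPKM + 1) scale. It understates the cyclosporine A changes of Kcnj10, Kcnj15 and Kcnma1, whose levels were low in that table. The Kcnma1 mean was 34.3% of its vehicle mean with cyclosporine A and 93.9% with tacrolimus. Over the other settings that kept all libraries, the Kcnma1 difference ran from -0.73 to -0.10, called only on deposited FPKM. On deposited FPKM 5 of the 6 differences were called lower (all but Kcnj10, which turned to -0.27), as were 74.9% of all genes tested.

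Ratios of 2 genes within a library do not depend on how the library was scaled, so they were compared between groups with exact 2-sided permutation tests. They ask whether the RNA of channel and pump subunits, or of members and the salt cotransporters of the same segments, moved unequally. P-values were adjusted over the 12 ratios tested in the cyclosporine A table and the 14 tested in the tacrolimus table, of which 9 and 11 are described. With 4 against 4 libraries the smallest p is 0.0286. No ratio of the cyclosporine A table could pass after adjustment for 12 tests unless most of them reached that p or came close, so this test could hardly call any.

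Against the thick ascending limb cotransporter NKCC2, Bsnd/Slc12a1 was 0.129, 0.172, 0.128 and 0.115 with saline and 0.247, 0.193, 0.221 and 0.305 with cyclosporine A. All drug values were above all saline values (log2 difference 0.82, exact permutation p = 0.0286, adjusted 0.114). With tacrolimus the same ratio overlapped, with a log2 difference of 0.26 (exact permutation p = 0.0476, adjusted 0.167). Atp1b1/Slc12a1 differed by 0.83 with cyclosporine A and overlapped (exact permutation p = 0.0571, adjusted 0.137). Both ratios share Slc12a1, which itself had an estimate of -0.94 with cyclosporine A, so they are not independent of each other. Bsnd and Atp1b1 had estimates of -0.13 and -0.13. Within the pump, Atp1b1/Fxyd2, beta over gamma subunit, was 0.163, 0.151, 0.106 and 0.126 with saline and 0.145, 0.168, 0.115 and 0.0977 with cyclosporine A. Both groups covered the same range (log2 difference -0.07, exact permutation p = 0.771, adjusted 0.771). Bsnd/Kcnj16, barttin over Kir5.1, was 0.299, 0.287, 0.420 and 0.334 with saline and 0.388, 0.314, 0.492 and 0.548 with cyclosporine A. The drug libraries lay higher on average and overlapped with saline (log2 difference 0.36, exact permutation p = 0.171, adjusted 0.294). None of the 9 ratios described for this table passed the adjusted test; 1 had an unadjusted p under 0.05.

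With tacrolimus 3 of 11 ratios passed the adjusted test, in which the smallest possible p is 0.00216. Kcnj16/Slc12a3, Kir5.1 over the distal convoluted tubule cotransporter NCC, ran from 2.15 to 2.77 (median 2.36) with DMSO/PEG and from 4.44 to 7.02 (median 5.74) with tacrolimus. Every tacrolimus library lay above every vehicle library (log2 difference 1.24, exact permutation p = 0.00216, the smallest possible, adjusted 0.0303). Kcnj10/Slc12a3 ran from 0.0995 to 0.158 (median 0.134) with vehicle and from 0.155 to 0.347 (median 0.267) with tacrolimus. Only the lowest tacrolimus library, replicate 6, fell within the vehicle range (log2 difference 0.99, exact permutation p = 0.00433, adjusted 0.0303). Both ratios share Slc12a3, whose fall was known from earlier results when they were chosen, so they are not independent support for it. Slc12a3 itself went from 101.5 to 43.3 FPKM (means), while Kcnj16 and Kcnj10 had estimates of -0.02 and -0.25.

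The third ratio that passed is between potassium channel subunits. Kcnj10/Kcnj15 ran from 0.0764 to 0.0928 (median 0.0822) with vehicle and from 0.0655 to 0.0797 (median 0.0709) with tacrolimus. Kcnj10 RNA was thus lower relative to Kcnj15 RNA, by 0.22 on the log2 scale (exact permutation p = 0.00866, adjusted 0.0404), with overlapping groups. These subunits are found mostly in different segments, and the part of segment content in their ratio was not tested. Kcnj10/Kcnj16 differed by -0.26 with wider spread and did not pass (exact permutation p = 0.152, adjusted 0.303). With cyclosporine A, Kcnj10/Kcnj15 differed by 0.57 in the other direction, with an SD of 1.10 over the saline and 1.49 over the drug libraries (exact permutation p = 0.571, adjusted 0.754). Leaving out 1 library, so that fewer samples enter the exact test, ended the call of Kcnj16/Slc12a3 in 8 of 12 cases at an adjusted p of 0.0606. The smallest possible p is higher then, and this ratio, whose groups stand apart, sits at it in every case. Whether its call stayed was thus set by the other ratios and does not show dependence on single libraries. The log2 difference of Kcnj16/Slc12a3 stayed between 1.18 and 1.31. The calls of Kcnj10/Slc12a3 and Kcnj10/Kcnj15 ended in 8 and 10 of the 12 cases, at adjusted p of up to 0.0606 and 0.0808 by the exact permutation test. The replicate block ended each of these ratio calls (adjusted p = 0.219 by the blocked exact test). That test cannot go below a p of 0.0313, so its loss of calls decides little.

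Between the drugs, the change in Kcnj16/Slc12a3 differed by -2.04 on the log2 scale, -0.80 with cyclosporine A against 1.24 with tacrolimus. This was the only 1 of the 9 ratios described in both tables whose difference passed (permutation test over 64680 arrangements within each contrast, p = 3.09e-04, adjusted 0.00371 over 12 tests), a test chosen after the tables had been seen. Neither gene of the ratio was called on its own between the drugs, Kcnj16 at -0.47 (given above) and Slc12a3 at 1.51 (limma changes, adjusted p = 0.117). With cyclosporine A that ratio was 1.90, 2.04, 3.63 and 4.29 with saline and 1.61, 1.58, 0.888 and 2.87 with drug, so most drug libraries lay below saline and replicate 4 lay within its range. The difference in Kcnj10/Kcnj15 was 0.79 (permutation p = 0.391, adjusted 0.506).

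**Figure D3:**
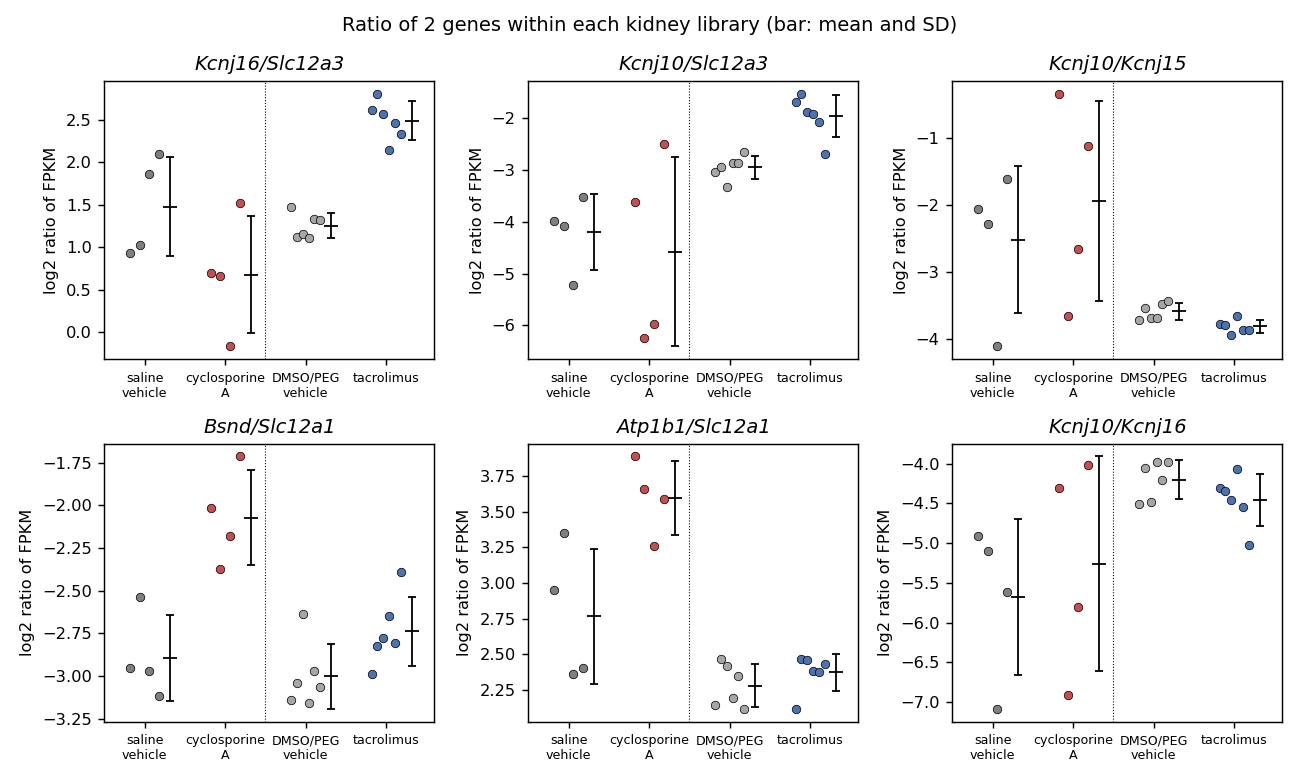
Log2 ratio of 2 genes within each library, by group, with the group mean and SD as a bar beside the points; the dotted line separates the 2 tables. Kcnj16/Slc12a3 stands apart between tacrolimus and its vehicle, Bsnd/Slc12a1 stands apart between cyclosporine A and saline, and Kcnj10/Kcnj15 and Kcnj10/Kcnj16 overlap in both tables.

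Partner genes of the same transport steps were read from lists. With cyclosporine A, 0 of 12 tested potassium channel genes, 0 of 5 chloride channel and transporter genes of the Clcn family and 0 of 9 sodium pump genes were called in either direction (4, 0 and 2 at an unadjusted p under 0.05 by limma, as had 16.3% of all genes). Of the 14 cotransporter and WNK kinase genes 0 were higher and 1 was lower, where 0.656% of all genes tested were called, and 3 had an unadjusted p under 0.05 by limma. The BK partner genes did not pass the filter on low values. The lower gene was Slc12a1, at 60.8 FPKM ± 9.87 (SD, n = 4) with saline and 31.3 ± 6.65 (SD, n = 4) with drug, a log2 fold change of -0.94 (limma adjusted p = 0.0493). That p is close to the threshold: leaving out any 1 library other than cyclosporine A replicate 4 ended the call (adjusted p up to 0.151), as did a pseudocount of 0.1 (0.0541), no filter on low values (0.114) and the replicate block (0.0958).

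Segment markers also differed in the cyclosporine A table. Of the 5 thick ascending limb markers Umod and Slc12a1 were called lower, while Cldn16 (0.21), Cldn19 (-0.01) and Ptger3 (-0.38) were not called. Their summed level was 293.2 to 552.4 FPKM with saline and 127.2 to 231.5 FPKM with drug, most of it Umod (means of 327.0 and 127.2 FPKM). Of the 4 tested distal convoluted tubule markers Calb1 was called lower, from 55.6 to 15.2 FPKM (log2 fold change -1.85, limma adjusted p = 0.0239). Slc12a3 (0.27), Trpm6 (-0.06) and Egf (-0.41) were not called, and Pvalb was at 0 in every library. That list summed to 60.5 to 79.6 FPKM with saline and 26.5 to 37.3 FPKM with drug. Of the 5 proximal tubule markers Slc5a2, at 0.282 FPKM with saline and 1.47 FPKM with drug, was called higher, while the other 4 had estimates below zero and were not called. Among these, Lrp2 (-0.58) and Cubn (-0.58) had every drug library below every saline library. So had the endothelial marker Plvap, which was not called (14.4 FPKM with saline, 2.68 FPKM with drug, log2 fold change -1.97, limma adjusted p = 0.0641) and whose difference between the drugs was called (-2.12, limma adjusted p = 0.0378). The urothelial marker Upk1a (1.52) was called higher, 1 of 4 tested, and that list summed to 1.63 to 4.19 FPKM with saline and 7.29 to 17.8 FPKM with drug. In the other direction, Scnn1b (0.27), Scnn1g (0.40), Wt1 (0.47) and Upk1b (0.78) had every drug library above every saline library and were not called. All 5 principal cell markers, among them Scnn1b and Scnn1g, had estimates above zero, with 0 called. The part of these markers in the member values was not tested.

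Among the partners, Fxyd2, the gamma subunit that tunes the pump, had an estimate of -0.07, Kcnj1, the urine-side channel ROMK, of -0.10 and Slc12a3 of 0.27, which turned to -0.89 on deposited FPKM. None of these 3 was called on rescaled FPKM.

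With tacrolimus, 0 of 13 potassium channel genes, 0 of 2 BK partners (Kcnmb1 and Kcnmb4), 0 of 5 Clcn genes and 0 of 13 sodium pump genes were called (3, 0, 1 and 1 at an unadjusted p under 0.05 by limma, as had 8.61% of all genes). Fxyd2 and Kcnj1 had estimates of -0.22 and -0.18. Of the 14 cotransporter and WNK kinase genes 3 were lower and 0 higher, where 0.304% of all genes tested were called, and 4 had an unadjusted p under 0.05 by limma. Slc12a3 fell by 1.24 (SE 0.12, adjusted p = 1.59e-04), Klhl3, an adaptor that marks WNK kinases for degradation, fell by 0.88, and Wnk1, a kinase upstream of NCC, fell by 0.81. Distal convoluted tubule markers moved in these libraries: 4 of 4 tested (Slc12a3, Trpm6, Calb1 and Egf) were lower, with Pvalb at 0 in every library, and their sum was 318.4 to 402.9 FPKM with vehicle and 67.0 to 103.1 FPKM with tacrolimus. Of the 5 adipocyte markers, all with estimates below zero (median -0.84), Ucp1 was called lower, from 15.1 to 0.619 FPKM (log2 fold change -3.33, limma adjusted p = 8.42e-04), and the list summed to 34.4 to 85.5 FPKM with vehicle and 23.5 to 56.5 FPKM with tacrolimus. The part of these markers in the estimates of Kcnj10 and Kcnj16 was not tested. In the same libraries the estimate of Kcnj16 was -0.02 and that of Kcnj10 -0.25.

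**Figure D4:**
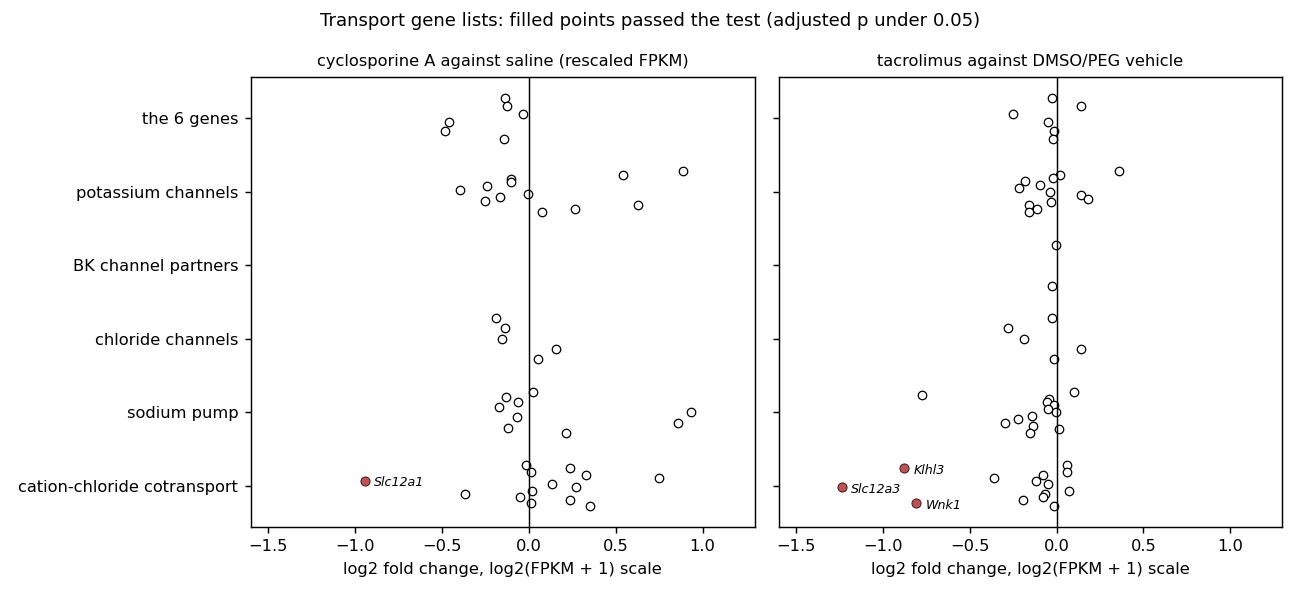
Log2 fold change on the log2(FPKM + 1) scale of the 6 genes and of the tested genes of each transport list, for cyclosporine A on rescaled FPKM and for tacrolimus; filled points are the genes with an adjusted p under 0.05. Slc12a1 is the filled point with cyclosporine A and Slc12a3, Klhl3 and Wnk1 are those with tacrolimus, while the points of the 6 genes are all open.

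Genes whose log2(FPKM + 1) followed a member most closely over the 12 libraries of the tacrolimus table were read from 9002 genes (9003 for Kcnma1) with a mean of at least 5 FPKM, as a description that drug and shared library effects can both shape. They were Scoc, Paip1 and Wdr55 for Kcnj16 (Pearson r 0.92, 0.90 and 0.90), Rpp30 and Mtrf1 after an unnamed locus for Kcnj10 (0.90 and 0.89), and Tm9sf3 and C5 before an unnamed locus for Kcnj15 (0.91 and 0.91). For Bsnd they were Borcs5, Oaf and Abhd1 (0.94, 0.93 and 0.93), for Atp1b1 Slc28a1, Lmcd1 and Dpf2 (0.82, 0.82 and 0.82), and for Kcnma1 Ndor1 and Gfm2 before an unnamed locus (0.82 and 0.76). In the 8 libraries of the cyclosporine A table the leading gene had an r of 0.54 for Kcnj16, -0.33 for Kcnj10, 0.81 for Kcnj15, 0.18 for Bsnd, 0.69 for Atp1b1 and -0.15 for Kcnma1. Of all 18 pairs, 8 had an r below 0 there, and the lowest were those of Kcnj16 with Paip1 (-0.93) and Wdr55 (-0.82).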

How the data were processed

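Whole-kidney RNA of 20 samples was sequenced on Illumina libraries made with an NEBNext kit, per the labels' protocols. The authors deposited 2 tables with a value and a length per gene; HISAT2 and the rn6 build are named in the submitters' processing notes, and the counting program, strand setting and annotation release are not given in the sources used here. The deposited values are FPKM, judged from the values: with the listed length, 100% (tacrolimus) and 74.6% (cyclosporine A) of values gave whole fragments within 0.01. Every value column was matched to a sample by name (0 unmatched).

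FPKM of each table was divided by median-of-ratios size factors from nuclear genes, which moved the tacrolimus table by at most 0.0364%. Genes equivalent to 10 fragments in as many libraries as the smaller group were tested with limma 3.58.1 (R 4.3.3; trend) on log2(FPKM + 1), with Benjamini-Hochberg adjustment over all genes tested and a threshold of 0.05. The difference between drugs used both standard errors with Satterthwaite degrees of freedom. Ratios were tested with exact permutations in Python 3.11.15. Scripts were tested on simulated data.

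The members, lists and ratios were chosen with earlier results of these data known. The text names the 6 genes, partners fixed by name (Fxyd2, Kcnj1, Slc12a1 and Slc12a3), list genes that passed, genes of the ratios, markers, and the 3 genes most like each member where they have a symbol. Some other partners, and the 3 ratios that use them, are not reported here, but p-values of ratios are adjusted over all ratios tested. Kcnk6 matched 2 identifiers and was not used. Alternatives covered pseudocount, filter, scaling, library weights, limma-voom on fragments, a replicate block and leaving out each library. No 2 libraries of a group agreed within sampling noise (chi-square over its degrees of freedom at least 16.7), so none was treated as a repeat deposit of another; replicates are those of the labels.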

Additional observations from a re-analysis of the deposited data

Results flagged for a closer look

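In groups of 4 or 6 libraries, 1 library stood far from the others of its group in 6 of the 64 groups examined, where chance alone gives about 1 in 20. Bsnd was highest in tacrolimus replicate 6, at 46.3 FPKM, and Atp1b1 was highest in tacrolimus replicate 2, at 1469 FPKM. The log2 ratio Kcnj15/Kcnj16 was lowest in saline replicate 4, at -4.00, and in tacrolimus replicate 6, at -1.16. The log2 ratio Bsnd/Slc12a1 was highest in DMSO/PEG replicate 3, at -2.64, and Atp1b1/Slc12a1 was lowest in tacrolimus replicate 1, at 2.12.

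Some changes differed between the drugs by a test of the difference. The log2 ratio Kcnj16/Slc12a3 differed by -2.04 (change with cyclosporine A minus change with tacrolimus), in a test chosen after the tables had been seen. On their own, Kcnj16 (-0.47) and Slc12a3 (1.51) were not called between the drugs. Among the partner lists the same difference was called for Slc12a1 (-0.83), the pump regulator Fxyd1 (1.08), the potassium channel Kcnk5 (0.79), Klhl3 (1.12) and Wnk1 (0.82) by limma changes with an adjusted p under 0.05. On deposited FPKM the differences of Fxyd1 (0.17) and Kcnk5 (0.01) were not called and that of Wnk1 turned to -0.34. Counting deposited FPKM, the call ended in 5 of 8 other settings for Fxyd1, 3 of 8 for Kcnk5, 3 of 8 for Slc12a1 and 2 of 7 for Klhl3. Leaving out 1 library ended it in 2 (Wnk1) to 10 (Slc12a1) of 20 cases. Drug, vehicle and table cannot be told apart in these differences.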

How the results depend on the processing

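For 62 results on genes and ratios, 1004 of 1147 alternative values kept their direction and their side of the threshold, 85 lost and 17 gained a call, and 41 changed sign. On deposited FPKM 10911 genes were called with cyclosporine A and 10068 between the drugs, and the following turned: Slc12a3 (-0.89), Kcnk5 (-0.14), Klhl3 (-0.37) and Wnk1 (-1.14) with cyclosporine A, and Kcnj10 (-0.27), Fxyd2 (-1.18), Kcnj1 (-1.21) and Wnk1 (-0.34) between the drugs. Other settings moved the 87 genes called with cyclosporine A to 1 (no filter), 165 (library weights) and 269 (limma-voom), the 47 with tacrolimus to 78 (library weights), and the 231 between the drugs to 129 (no filter); the cause was not tested. Replicate numbers showed no clear pairing of the samples: correlations of same-numbered deviations were -0.16 to 0.22 with cyclosporine A and -0.15 to 0.18 with tacrolimus. Same-numbered samples correlated best with each other only for replicate 4 with cyclosporine A and replicates 1 and 2 with tacrolimus. Such correlations cannot exclude a pairing. With the replicate block, 13 genes (cyclosporine A), 44 (tacrolimus) and 193 (between drugs) were called, and 0 ratios in either table in place of 0 and 3. The blocked exact test of the ratios cannot go below a p of 0.125 with 4 pairs and 0.0313 with 6, so after adjustment no ratio could pass with cyclosporine A, nor with tacrolimus unless most reached that p; the log2 differences are the same with and without the block. No member was called in 16 of 17 alternatives with cyclosporine A, 20 of 20 with tacrolimus and 27 of 28 between the drugs, the exceptions being deposited FPKM. Leaving out 1 library gave 1 (without saline replicate 4) to 138 (without cyclosporine A replicate 4) genes with cyclosporine A, 37 to 50 with tacrolimus, 27 (without saline replicate 4) to 270 between the drugs, and 0 to 4 ratios with tacrolimus. It also turned the sign of some estimates, none of them called: with cyclosporine A, Kcnj10 (-0.17 to 0.089), Atp1b1 (-0.23 to 0.0098), Wnk1 (-0.076 to 0.089) and the log2 ratios Kcnj10/Kcnj16 (-0.046 to 0.97), Kcnj15/Kcnj16 (-0.43 to 0.070), Atp1b1/Fxyd2 (-0.19 to 0.065) and Kcnj10/Slc12a3 (-1.08 to 0.17). With tacrolimus these were Kcnj16 (-0.064 to 0.023), Kcnj15 (-0.10 to 0.0065), Kcnma1 (-0.045 to 0.0042) and the ratios Kcnj15/Kcnj16 (-0.078 to 0.071), Kcnma1/Kcnmb1 (-0.22 to 0.26) and Kcnma1/Kcnmb4 (-0.16 to 0.18), and between the drugs Atp1b1 (-0.20 to 0.035) and Kcnj1 (-0.021 to 0.15). Of the 6 genes, Kcnma1 and Kcnj10 rest on the fewest fragments in the cyclosporine A table.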

Other observations

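The vehicle kidneys of the 2 tables differed in how much of each subunit they held relative to the others. Kcnj15/Kcnj16 was 0.0624 to 0.141 over the saline libraries and 0.573 to 0.815 over the DMSO/PEG libraries, with no overlap. Kcnj10/Kcnj16 was 0.00736 to 0.0332 with saline and 0.0438 to 0.0635 with DMSO/PEG, and Bsnd/Kcnj16 was 0.287 to 0.420 and 0.123 to 0.167. The gene lengths behind these 4 genes were the same in both tables. Proximal tubule markers differed between the same libraries, with a sum of 159.4 to 241.1 FPKM with saline and 2267 to 2604 FPKM with DMSO/PEG, in tables normalized separately, and their part in these ratios was not tested. Vehicle and table cannot be told apart here, and the ratios were not tested.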
